A study of Danio rerio with 20 samples.

Results

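Whole zebrafish (Danio rerio) larvae exposed to lithium cobalt oxide (LCO) nanosheets at 10 mg/L were compared directly with larvae exposed at 1 mg/L. All 5 RNA sequencing libraries carrying the 10 mg/L treatment label and all 5 carrying the 1 mg/L label were used, which is 10 of the 20 libraries of the series. The other libraries were 5 of an ion treatment, whose composition and dose the labels do not give, and 5 of untreated controls. All larvae were wild type and 10 days post-fertilization, and exposure lasted 48 hours. Each library came from a pool of 20 larvae, so a value is a mean over 20 whole animals and says nothing of a single tissue or a single larva. The labels name neither the parents nor the tanks, so p-values measure the spread between pools, which may be in part technical. In whole larvae, fewer cells of a type and less RNA per cell cannot be told apart.

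Lithium cobalt oxide is a layered oxide used as the cathode of lithium-ion batteries. In water it can release lithium and cobalt ions, so that an animal meets particles and ions together. Cobalt is an essential trace element as the metal of vitamin B12, and in excess it can take the place of iron in enzymes such as the prolyl hydroxylases of oxygen sensing. A response that grows with dose and a response that is larger at a lower dose are both known for toxicants, and a direct comparison of 2 doses asks which of these holds for each transcript. The files give Ensembl transcript identifiers without gene names, and 0 of 57775 matched the name tables used here, so no gene or pathway is named. A transcript level can differ because its gene differs or because reads move between transcripts of 1 gene.

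The 10 mg/L libraries totalled 24950529 to 47031868 estimated counts, and those of 1 mg/L 30439905 to 52060281. On the first principal component of log2 CPM (counts scaled to an equal library total), which held 14.7% of the variance, 8 of the 20 libraries stood apart from the controls. These were 4 of 5 at 10 mg/L (all but replicate 1), 2 of 5 at 1 mg/L (replicates 1 and 2), 2 of 5 under ion and 0 of 5 controls. The labels give no batch for this division. Because the doses fall unevenly on its sides, the results are also given within each side. The fragment length gap of a library is the median difference between length and effective length over transcripts longer than 3000 bases. It was 162 ± 3.60 bases at 10 mg/L and 161 ± 4.39 bases at 1 mg/L (SD, n = 5 each). It was 152 ± 5.98 bases in controls (SD, n = 5).

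Most transcripts that differed between the doses were higher at 10 mg/L, and in nearly all of these 1 mg/L was the level farthest below control. Of 39355 transcripts tested with edgeR's quasi-likelihood test, 84 differed at a Benjamini-Hochberg adjusted p under 0.05, which is 0.213% of those tested. Of these, 83 (0.211%) were higher and 1 (0.00254%) was lower at 10 than at 1 mg/L. The test shared its estimate of the spread over all 20 libraries, and a fit of the 10 LCO libraries alone called 0. The 83 had a median fold of 1.88, with quartiles of 1.61 and 2.35. In 68 the fold was at least 1.5, in 32 at least 2 and in 7 at least 4. Over all 39355 transcripts the median log2 fold change was 0.01, with a median standard error of 0.18 (quartiles 0.11 and 0.34). A difference that was not called is therefore not shown to be absent. At an unadjusted p under 0.05, 3277 transcripts (8.33%) differed, 2162 (5.49%) higher and 1115 (2.83%) lower at 10 mg/L. The groups did not overlap in 62 of the 83 rises and in the 1 fall. Over all transcripts the 5 libraries of 10 mg/L lay above the 5 of 1 mg/L in 431 (1.1%) and below them in 126 (0.32%).

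The untreated level lay above both doses in most of the 83. With levels ordered by the fitted means, controls were highest, 10 mg/L was between and 1 mg/L was lowest in 79 of the 83 (95.2%). In the other 4 the control lay between the doses, and in 0 was the control lowest. Control libraries do not enter the difference between the doses, except through the shared estimate of the spread. Among all 20138 transcripts with a positive log2 fold change between 10 and 1 mg/L, these 3 orders held 44.1%, 19.5% and 36.4%. Many of those differ little between the doses. Of the 2162 higher at 10 mg/L at an unadjusted edgeR p under 0.05, the orders held 1445, 575 and 142. Choosing transcripts lower at 1 than at 10 mg/L by itself favours controls above 1 mg/L. The single fall had controls highest, 1 mg/L between and 10 mg/L lowest, so it was the only call of the 84 in which 10 mg/L was farther from control than 1 mg/L was on the same side. Over the 83 rises the median log2 fold change against control was -0.62 at 10 mg/L, a level at 65.2% of control, and -1.60 at 1 mg/L, a level at 33% of control. Over all tested transcripts it was -0.01 at 10 mg/L and 0.00 at 1 mg/L. Of the 83, 47 were called lower than control at 10 mg/L, against a background of 3.99% of all tested transcripts, and 80 at 1 mg/L, against a background of 8.41%. Of the 80, 33 were not called at 10 mg/L. The other 3 were called against control at neither dose, and 0 were called higher than control at either dose. These comparisons with control use the same LCO libraries as the comparison between the doses, so the counts are a description.

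**Figure D1:**
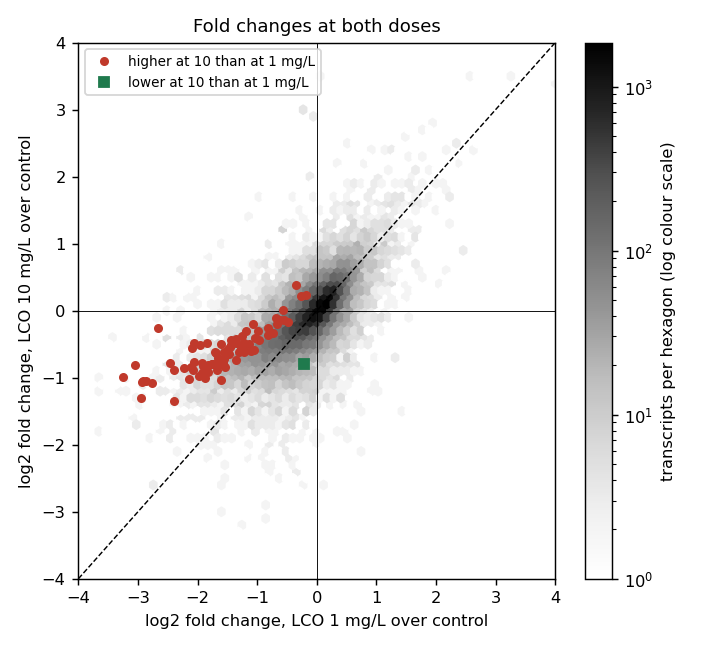
Log2 fold change of each transcript at 10 mg/L over control (vertical) against that at 1 mg/L over control (horizontal), with all 39355 tested transcripts as grey hexagons on a log colour scale and the 84 called between the doses as red circles (83 higher at 10 mg/L) and a green square (1 lower). The dashed line marks equal changes at both doses. Both axes share the 5 controls, which by itself draws points along the diagonal, and 4 calls beyond a log2 fold change of -4 at 1 mg/L lie outside the frame. Red circles sit above the dashed line and mostly left of and below 0, where the fall at 1 mg/L was the larger.

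The level of the 83 was also read library by library; this contrast chose them, so the levels are a description. Each library was summarised by the median, over the 83, of its log2 CPM minus the control mean. At 10 mg/L this median was -0.70, -0.51, -0.59, -0.43 and -1.0 in replicates 1, 2, 3, 4 and 6. At 1 mg/L it was -1.80, -1.75, -1.33, -1.48 and -1.58 in replicates 1, 2, 3, 5 and 6. Every 10 mg/L library was above every 1 mg/L library. Between 73 and 81 of the 83 transcripts were below the control mean in the 10 mg/L libraries, and all 83 were below it in each of the 5 libraries of 1 mg/L. Replicate 6 of 10 mg/L came nearest to the lower dose and replicate 3 of 1 mg/L nearest to the higher. Controls ranged from -0.11 to 0.19. Over all tested transcripts the same median lay between -0.01 and 0.02 in every library, a balance that the scaling sets.

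**Figure D2:**
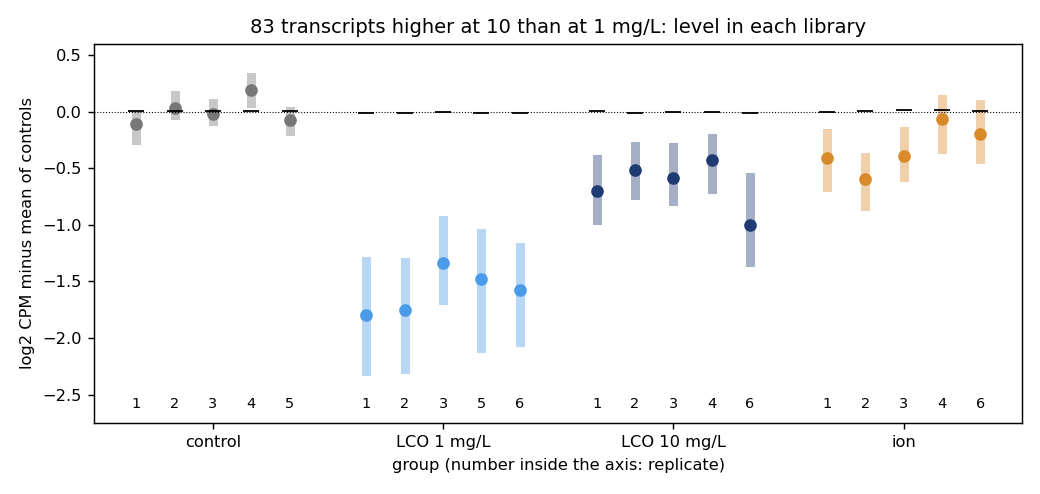
Level of the 83 transcripts higher at 10 than at 1 mg/L in each of the 20 libraries, as log2 CPM minus the mean of the 5 controls; points are medians over the 83, bars run from the lower to the upper quartile and black dashes are the medians over all tested transcripts. The 5 libraries of 10 mg/L lie between -1.0 and -0.43, those of 1 mg/L between -1.80 and -1.33, and the ion libraries between -0.59 and -0.06, with the transcripts chosen by the difference between the 2 doses.

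Ion libraries lay nearest to the controls of the 3 exposures. Like the controls, they enter the calls between the doses only through the shared spread, and without them edgeR called 60 transcripts, 48 of them among the 83. Their medians over the 83 were -0.41, -0.59, -0.39, -0.06 and -0.20 in replicates 1, 2, 3, 4 and 6. The ion mean was above the 10 mg/L mean in 78 of the 83 and above the 1 mg/L mean in 82, where 53.5% and 52.9% of all tested transcripts were. It was below the control mean in 76 of the 83, where 51.1% of all tested transcripts were. Choosing the 83 as lower at 1 than at 10 mg/L by itself favours other groups above 1 mg/L. These counts are a description. Ion replicate 4 lay within the range of the controls, and replicate 2 within that of the 10 mg/L libraries.

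The 83 also varied together within groups, which the contrast did not select directly, though its test divides by the spread within groups. After each group mean was removed, the mean pairwise correlation between transcripts of the 83 was 0.36 over the 20 libraries, against 0.00 over all pairs of tested transcripts. These points share their libraries, and transcripts of 1 gene can share reads, so this is a description. The background pairs were not matched to the 83 in abundance or in direction. None of the 84 repeated the counts of another kept transcript (0). The 83 were more abundant than the tested transcripts, with a median mean log2 CPM of 4.0 against 1.97, and longer, with a median of 2321 against 1857 bases. More counts give a smaller error, and the top tercile by abundance held 55 of the 84 calls, the middle 26 and the bottom 3, with median standard errors of 0.09, 0.16 and 0.41 in that order. Across quartiles of length, from short to long, the calls numbered 15, 19, 28 and 22, and the median log2 fold change between the doses ranged from 0.00 to 0.01.

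Of the calls whose mean log2 CPM reached 1, the largest rises were in ENSDART00000169128.2 and ENSDART00000164665.2. ENSDART00000169128.2, of 1251 bases, was at 36.1, 52.4, 53.4, 0 and 32.7 CPM in 10 mg/L replicates 1, 2, 3, 4 and 6, while each 1 mg/L library held 0. Controls held 152 to 370 CPM and ion libraries 61.3 to 131 CPM, so each exposed group was below every control and the LCO groups touched only at 0, through replicate 4. Its 10 mg/L mean was 34.9 ± 21.6 CPM (SD, n = 5). Against a floor of 3 counts over the 5 libraries of 1 mg/L, this mean was at least 2315-fold higher. That bound covers counting error only and not the spread between pools. The adjusted p was 0.0158 by edgeR and 0.928 by limma-voom, and the edgeR call was lost without 1 mg/L replicate 1 or 6 (up to 0.0606).

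ENSDART00000164665.2, of 1845 bases, was at 22.7, 14.0, 17.3, 22.8 and 8.42 CPM in 10 mg/L replicates 1, 2, 3, 4 and 6. In 1 mg/L replicates 1, 2, 3, 5 and 6 it was at 2.21, 1.51, 9.63, 2.19 and 2.59 CPM. The groups overlapped through 2 libraries, since 1 mg/L replicate 3 exceeded 10 mg/L replicate 6. The log2 fold change was 2.26 with a standard error of 0.46 (edgeR adjusted p = 0.0475, limma-voom 0.0902). It was 2.07 to 2.98 without single LCO libraries, and the call was kept without 10 mg/L replicate 6 or 1 mg/L replicate 3 but lost without any 1 of the other 8 (edgeR adjusted p up to 0.147). Controls held 27.4 to 39.2 CPM, above every LCO library, and ion libraries held 11.7 to 59.8 CPM.

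The 1 transcript lower at 10 mg/L, ENSDART00000190477.1 of 1964 bases, was at 7.21, 4.61, 6.57, 5.45 and 5.65 CPM in 10 mg/L replicates 1, 2, 3, 4 and 6. At 1 mg/L it was at 8.28, 7.76, 8.16, 9.94 and 10.1 CPM in replicates 1, 2, 3, 5 and 6. No library of 10 mg/L reached the level of any library of 1 mg/L, and controls, at 8.50 to 11.0 CPM, overlapped with 1 mg/L. The log2 fold change was -0.58 with a standard error of 0.12 (edgeR adjusted p = 0.0475, limma-voom 0.0808), and the call was lost without any 1 of 8 LCO libraries (edgeR adjusted p up to 0.15). Against control it was called at 10 mg/L (log2 fold change -0.79, edgeR adjusted p = 0.00106), and at 1 mg/L the value was -0.21 (0.269).

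**Figure D3:**
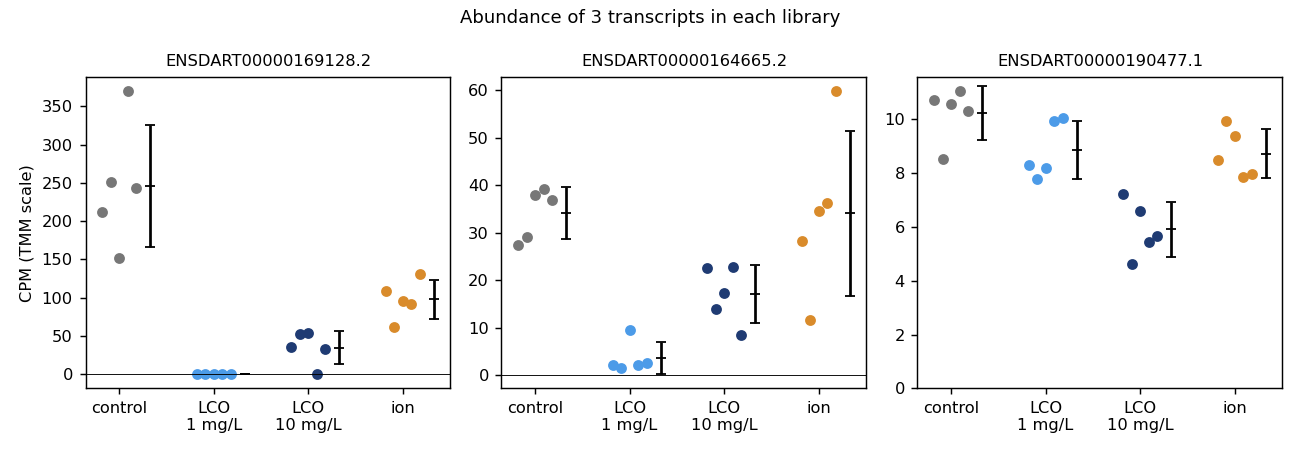
CPM of the 3 transcripts in each library; points are libraries, and the bar beside them is the mean ± SD of 5 libraries, with each vertical axis on its own scale. ENSDART00000169128.2 stands at 0 in 1 library of 10 mg/L and in every library of 1 mg/L, ENSDART00000164665.2 averages 17.1 CPM at 10 mg/L and 3.63 CPM at 1 mg/L, and ENSDART00000190477.1 is lowest at 10 mg/L.

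Calls below a mean log2 CPM of 1 reached log2 fold changes of 5.28 and 5.25. Among calls that reached it, the next 13 rises by size, of 974 to 8522 bases, had folds of 2.42 to 4.73. Their group means ran from 2.40 to 219 CPM at 10 mg/L and from 0.782 to 77.4 CPM at 1 mg/L, and in all 13 the control mean was above both doses. By edgeR 3 were called lower than control at 10 mg/L and all 13 at 1 mg/L, where 3.99% and 8.41% of all tested transcripts were. The groups did not overlap in 8 of the 13. Over all tested transcripts, 1.1% had every 10 mg/L library above every 1 mg/L library. The 13 were chosen by the difference between the doses, so these counts are a description. Limma-voom called 1 of the 13 between the doses, a transcript of 8522 bases. It was at 34.4, 82.4, 63.1, 51.3 and 59.4 CPM in 10 mg/L replicates 1, 2, 3, 4 and 6, against 21.0, 23.6, 23.4, 8.90 and 16.2 CPM in 1 mg/L replicates 1, 2, 3, 5 and 6. Every 10 mg/L library was above every 1 mg/L library and below every control, which held 112 to 170 CPM. Its log2 fold change was 1.64 with a standard error of 0.28 (adjusted p = 0.0219 by edgeR and 0.0455 by limma-voom). Each of the 13 calls was lost without any 1 of 6 to 8 of the 10 LCO libraries.

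Other calls showed the same order at very different levels. The call with the smallest adjusted p was a rare transcript of 737 bases, at 1.07, 0.827, 1.19, 1.57 and 0.341 CPM in 10 mg/L replicates 1, 2, 3, 4 and 6, against 0.128, 0.0548, 0.0598, 0.0391 and 0.129 CPM in 1 mg/L replicates 1, 2, 3, 5 and 6. The groups did not overlap, and controls held 1.30 to 2.45 CPM. Its log2 fold change was 3.58 with a standard error of 0.44 (edgeR adjusted p = 0.00624), and it was the only call of the 84 kept without any 1 of the 10 LCO libraries (at most 0.0332). Limma-voom gave an adjusted p of 0.361. The fold of this transcript rests on few counts at 1 mg/L, where 3 counts over the 5 libraries make 0.0151 CPM. The widest gap between the groups was in a transcript of 811 bases, at 1.5 to 2.36 CPM at 10 mg/L and 0.15 to 0.557 CPM at 1 mg/L. Controls, at 1.27 to 3.09 CPM, overlapped with 10 mg/L and with no library of 1 mg/L. The wide gap did not make this call firm. Its edgeR adjusted p was 0.0397, and it was lost without any 1 of 9 of the 10 LCO libraries (up to 0.114). By limma-voom its adjusted p was 0.441.

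The most abundant call, of 792 bases, was at 1387, 1665, 1748, 1595 and 1300 CPM in 10 mg/L replicates 1, 2, 3, 4 and 6. At 1 mg/L it was at 497, 810, 1083, 1102 and 955 CPM in replicates 1, 2, 3, 5 and 6. The groups did not overlap, and controls were above both at 2327 to 3366 CPM. The log2 fold change between the doses was 0.79 with a standard error of 0.16 (edgeR adjusted p = 0.0475). The next 4 by abundance had mean levels of 982 to 1651 CPM at 10 mg/L and of 574 to 991 CPM at 1 mg/L. In all 5 the 10 mg/L libraries were above the 1 mg/L libraries, as in 1.1% of all tested transcripts. The control mean was above both doses in all 5. These 5 were calls between the doses, so this is a description. Some calls were smaller differences with little spread. The call of 4738 bases (edgeR adjusted p = 0.0158, log2 fold change 0.46, standard error 0.07) averaged 16.2 ± 1.39 CPM at 10 mg/L and 11.8 ± 0.444 CPM at 1 mg/L (SD, n = 5 each). Its control mean was 24.3 ± 1.61 CPM (SD, n = 5), so all 3 levels stood apart.

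The effects of both doses against control were then set side by side over the transcripts called at either dose, 2470 (6.28%) at 10 mg/L and 5016 (12.7%) at 1 mg/L by edgeR. Since a list chosen at 1 mg/L favours large changes there, and a list chosen at 10 mg/L the opposite, both lists are given, and both comparisons share the 5 controls. Over the 1572 falls called at 10 mg/L the median log2 fold change was -0.63 at 10 mg/L and -0.81 at 1 mg/L, and 1162 of them (73.9%) were larger at 1 mg/L. Over the 3308 falls called at 1 mg/L the medians were -0.49 at 10 mg/L and -0.77 at 1 mg/L, and 3074 (92.9%) were larger at 1 mg/L. The 73.9% was 59.5% to 80.0% without single libraries and 66.6% with DESeq2. Over all tested transcripts, controls were highest and 1 mg/L lowest in 22.6%, and controls highest and 10 mg/L lowest in 16.9%. The transcripts share 5 pools per dose, so these counts are a description. In this description, most falls were larger at the lower dose in both lists. With the libraries on the side of the controls alone, 1 library of 10 mg/L remained, and most falls then called at 10 mg/L were larger there. A list chosen from a single pool by itself favours this. That subset therefore cannot show whether the order held or turned.

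The lists of rises showed no common order. Over the 898 rises (2.28%) called at 10 mg/L the median log2 fold change was 0.33 at 10 mg/L and 0.30 at 1 mg/L, and 595 were larger at 10 mg/L. Over the 1708 (4.34%) called at 1 mg/L the medians were 0.22 and 0.29 in that order of doses, and 1388 were larger at 1 mg/L. Each list of rises was larger at the dose that chose it, with 33.7% of the first and 81.3% of the second larger at 1 mg/L. Over all tested transcripts, controls were lowest and 1 mg/L highest in 20.1%, and controls lowest and 10 mg/L highest in 18.6%. Among the 3277 with an unadjusted edgeR p under 0.05 between the doses, these orders held 9.89% and 4.33%. By edgeR, 0 of either list of rises were called between the doses. Of the falls, 48 of the 1572 called at 10 mg/L were, and 80 of the 3308 called at 1 mg/L. The 48 include the 1 call lower at 10 mg/L. Over all tested transcripts 84 (0.213%) were called between the doses. Each list shares its LCO libraries with the comparison between the doses, so these counts are a description. The median difference between the doses over the rises called at 1 mg/L was -0.07 on the log2 scale, with a median standard error of 0.07 for a single transcript. Single libraries moved the 2470 calls at 10 mg/L against control, to 1223, 1200 or 1624 when control replicate 3, 4 or 5 was left out, and to 1285, 1616 or 1313 when 10 mg/L replicate 2, 3 or 6 was. When the fragment length gap was a covariate they numbered 206, and the 5016 at 1 mg/L numbered 2649.

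By the size of the whole response the doses overlapped. It was measured in each library as the root mean square difference of log2 CPM from the control mean. This distance was 0.754, 0.958, 0.869, 0.760 and 0.906 in 10 mg/L replicates 1, 2, 3, 4 and 6, against 0.911, 0.965, 0.789, 0.810 and 0.800 in 1 mg/L replicates 1, 2, 3, 5 and 6. The means were 0.849 ± 0.0898 at 10 mg/L and 0.855 ± 0.0784 at 1 mg/L (SD, n = 5 each), a difference of -0.01. An exact two-sided permutation test gave p = 0.952, also after adjustment over 5 library measures, with 0.00794 the smallest p that 5 against 5 allows. Each control lay 0.608 to 0.751 from the mean of the other 4 controls, so every LCO library was farther than any control. In both doses the libraries apart on the first component held the 2 largest distances, though at 10 mg/L 4 of 5 libraries were apart. Of these, replicate 4 (0.760) was close to replicate 1 (0.754), which was not apart. Library distances include counting noise, which is larger in shallow libraries. The farthest libraries of 10 mg/L, replicates 2, 6 and 3, had the smallest totals of the series (24950529, 25940642 and 27014252 estimated counts). Pairs of libraries were a median of 1.01 apart within 10 mg/L and 1.01 within 1 mg/L, and 1.01 between the doses, against 0.872 within controls. Within ion the median was 0.927. The spread shared by edgeR was thus drawn in part from groups with closer pairs than either dose. A distance has no direction. On the second principal component (10.2% of the variance) controls scored 23.1 to 54.6. The 10 mg/L replicates 1, 2, 3, 4 and 6 scored -39.2, -0.03, 6.46, -3.14 and -14.8. The 1 mg/L replicates 1, 2, 3, 5 and 6 scored -35.6, -38.7, -48.2, -84.0 and -80.4. All 10 mg/L libraries but replicate 1 were nearer to the controls than every 1 mg/L library. This was not tested.

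**Figure D4:**
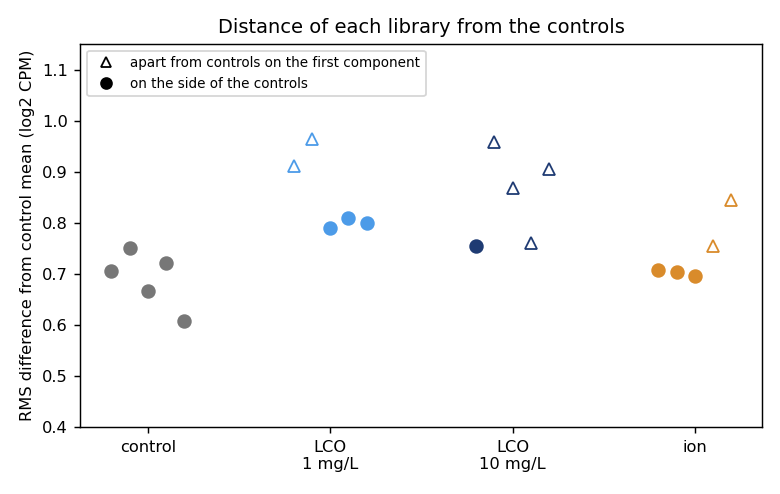
Root mean square difference in log2 CPM between each library and the mean of the controls (for a control, the mean of the other 4), by group; open triangles are the 8 libraries apart from the controls on the first principal component, and the vertical axis starts at 0.4. Values at 10 mg/L run from 0.754 to 0.958 and at 1 mg/L from 0.789 to 0.965, and they overlap.

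The other 4 library measures did not pass either. The share of counts in the 100 most abundant transcripts was 28.4 ± 1.87% at 10 mg/L and 26.7 ± 0.601% at 1 mg/L (SD, n = 5 each; exact two-sided permutation p = 0.0873, adjusted 0.410). Transcripts at 1 CPM or more numbered 29069 ± 231 at 10 mg/L and 28894 ± 213 at 1 mg/L (SD, n = 5 each; exact permutation p = 0.246, adjusted 0.410). Controls had 29581 ± 142 (SD, n = 5), more than every LCO library. Library totals and the fragment length gap had exact permutation p of 0.198 and 0.802, adjusted 0.410 and 0.952. Of the tested transcripts, 65 had no counts in any library of 10 mg/L and 65 had none in any of 1 mg/L, with 6 in common. Only 2 were above 0 in every 10 mg/L library and at 0 in every 1 mg/L library, and 2 the other way round.

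The number of calls between the doses depended on single libraries. The count of 84 was 54, 7, 10, 6 and 162 without 10 mg/L replicates 1, 2, 3, 4 and 6, and 1, 11, 178, 21 and 1 without 1 mg/L replicates 1, 2, 3, 5 and 6. It was 61, 51, 51, 45 and 46 without control replicates 1 to 5, which enter through the shared spread. Over these 15 fits the median log2 fold change of the 83 lay between 0.85 and 1.0, and all 83 were positive in each. The 83 were chosen by this contrast on the same libraries, so their sign there is a description and no sign of stability. A fit of the 10 LCO libraries alone gave 0 calls by edgeR. On all libraries DESeq2 gave 499 calls (439 higher and 60 lower) and limma-voom 21, all higher. With the side of the first component as a second factor, 42 were called, all higher at 10 mg/L, and 32 of them were among the 83.

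**Figure D5:**
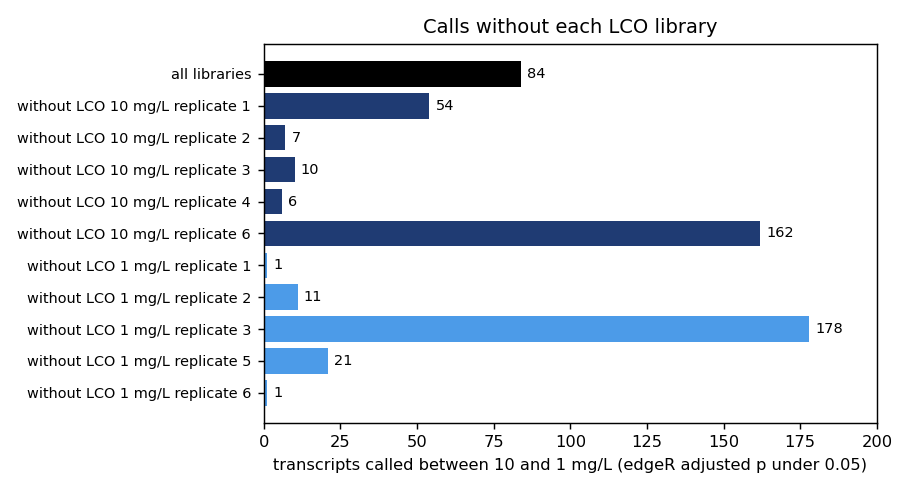
Number of transcripts called between 10 and 1 mg/L (edgeR adjusted p under 0.05) with all libraries and without each of the 10 LCO libraries; bars start at 0. The count runs from 1, without 1 mg/L replicate 1 or 6, to 178, without 1 mg/L replicate 3.

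The levels of the 83 were also compared within each side of the first component. Among the libraries apart from the controls, 4 of 10 mg/L against 2 of 1 mg/L, all 83 had a positive log2 fold change, with a median of 1.13. Among the libraries on the side of the controls, 1 of 10 mg/L against 3 of 1 mg/L, all 83 were again positive, with a median of 0.71, and the single library was assumed to vary like the other groups. The 83 were called on all libraries, so these values too are a description. The counts within the sides were 5 (4 higher and 1 lower) and 7 (1 higher and 6 lower).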

How the data were processed

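The authors deposited 1 table per library with length, effective length, estimated counts and TPM for 57775 Ensembl transcripts. FastQC 0.11.5, cutadapt 1.18, kallisto 0.45.0 and build GRCz11 are named in the submitters' processing notes; settings are not given in the sources used here. Kallisto shares reads among transcripts, so the deposited estimated counts are not whole in 58.6% to 64.8% of values. The deposited TPM values were not used. The members and rules were chosen with earlier results of these data known.

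Estimated counts were rounded, filtered by filterByExpr (minimum count 10; 39355 transcripts kept, with at least 99.9% of each library), scaled by TMM and tested by edgeR 4.0.16 (glmQLFit, glmQLFTest, two-sided; R 4.3.3), with 20 libraries and group as the only factor. The standard error is the log2 fold change divided by the square root of F. CPM are on the TMM scale, and log2 CPM used a prior count of 2. Alternatives were limma-voom (limma 3.58.1), DESeq2 1.42.0, RLE scaling, other filters, covariates and subsets of libraries, with the same kept transcripts unless the filter or, for the LCO libraries alone, the set of libraries changed. The naming rule took the largest rises and falls among calls whose mean log2 CPM reached 1, the smallest adjusted p, the most abundant calls and the widest gaps between groups. With no gene names, identifiers are printed for 2 rises and 1 fall, other calls that the rule names are given by length, and the gene lists and cell type markers could not be used. No library repeated another (0 identical pairs; over 20 pairs within a dose the lowest ratio of chi-square to its degrees of freedom was 13.2). The floor of 3 counts covers counting error only, while SD and standard errors include the spread between pools.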

Additional observations from a re-analysis of the deposited data

Results flagged for a closer look

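Among 27 groups of 5 libraries examined, 1 held a library far from its fellows. ENSDART00000164665.2 was at 9.63 CPM in LCO 1 mg/L replicate 3, and the other 4 libraries of 1 mg/L held 1.51 to 2.59 CPM. Chance flags about 1 in 20 such groups.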

How the results depend on the processing

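The 84 calls between the doses (83 higher, 1 lower) became 499 (439, 60) with DESeq2, 42 (42, 0) with the side of the first component as a factor, 21 (21, 0) with limma-voom, 45 (45, 0) with no filter on low counts, 0 with the LCO libraries alone, 7 (1, 6) without the 8 libraries apart, 5 (4 higher) with those alone and 3 (2 higher) without 10 mg/L replicates 2 and 3 together. The last 2 settings, a filter at 1 CPM and leaving out single controls were chosen after seeing the data. With only LCO and control libraries fitted, 0 were lower. Without single libraries the count was 1 to 178 (1 to 177 higher, 0 to 3 lower). With the replicate number as a replicate block it was 21 (21 higher, 0 lower), and 17 of the 83 were among them. Pairing by number was not seen: deviations of same-numbered pools correlated at -0.20, 0.17, -0.02 and -0.03, and 2 of 8 pools correlated best with their own number. Correlations over whole libraries cannot exclude shared parents or tanks, which the labels do not name.

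The 2470 calls at 10 mg/L against control became 4474 with DESeq2, 968 with the side as a factor, 206 with the fragment length gap as a term, 589 without replicates 2 and 3 together, 38 without the libraries apart, and 1200 to 2836 without single libraries. The 5016 at 1 mg/L became 2649 with the gap. Some shares of calls between the doses given next rest on few calls. Without 10 mg/L replicates 2 and 3 together there were 3, and without 1 mg/L replicate 1 or 6 only 1. The share of calls with controls highest and 1 mg/L lowest, 94.0%, was 76.0% with DESeq2, 85.7% with the block, 66.7% without replicates 2 and 3 together, 14.3% without the libraries apart and 85.7% to 100% without single libraries. The distance from controls, 10 minus 1 mg/L, reversed to 0.0157 at a prior count of 0.5 and ran from -0.0325 to 0.0221 without single libraries, and the difference in fragment length gap from -0.26 to 2.29 bases; none passed. The causes were not tested. Of the 84 calls, 3 were in the bottom tercile of abundance, where the median standard error was 0.41, against 55 in the top tercile, where it was 0.09.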
